A study of Mus musculus with 24 samples.

Results

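The 9 genes described here, Myh6, Myh7, Tnnt2, Myl4, Myl7, Actc1, Nppa, Ryr2 and Smpx, are textbook genes of heart muscle, and they were followed in libraries made from embryonic mouse lung and small intestine. They were picked by symbol, 9 of the 55536 genes in the table, each with a single row. RNA had been taken from whole organs dissected at E11.5, and each of the 6 groups, formed by 2 organs and 3 genotypes, held 4 libraries. Control embryos were ShhCre Cenpj+/lox, Cenpj mutants were ShhCre Cenpj-/lox, and Ift88 mutants were ShhCre Ift88-/lox. All groups thus carried ShhCre, a Cre recombinase driven by the Shh gene and hence expected in the epithelial lining and not in muscle, and controls carried a conditional Cenpj allele as well. Cenpj is needed to build centrioles and Ift88 to build cilia. Each mutant also lacked 1 working copy of its gene in every cell, and the same controls served both mutants, so the Cenpj and Ift88 comparisons are not independent of each other. The labels do not say that replicates came from separate animals, so p-values measure the spread between these libraries, which may be technical.

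In a heart muscle cell, myosin filaments built from heavy chains (Myh6, Myh7) and light chains (Myl4, Myl7) pull on actin filaments (Actc1) when the troponin complex, which includes Tnnt2, senses calcium. That calcium is released from internal stores through the ryanodine receptor Ryr2, and Nppa encodes a hormone that atrial muscle secretes. In the mouse, a sleeve of heart muscle extends along the pulmonary veins into the lung, while the wall of the intestine holds smooth muscle, and several of these genes are also transcribed outside the heart in the embryo.

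Library totals were 96.1 to 120.9 M reads, and 21994 to 26529 genes were detected. Nkx2-1, the transcription factor of lung epithelium, and Cdx2, that of intestinal epithelium, followed the organ labels, with a log2 difference between control lung and control intestine of 12.12 (SE 0.629) for Nkx2-1 and -9.38 (SE 0.84) for Cdx2. Cenpj averaged 2577 normalized counts in Cenpj mutant lung against 3433 in control lung, and Ift88 averaged 1973 in Ift88 mutant lung against 2637 in control lung. Neither difference passed the threshold (limma adjusted p = 0.339 and 0.166). Reads from ribosomal RNA genes were above 2000 per M reads in 10 libraries, namely all 8 of the Cenpj mutants, lung control 3 and intestine control 2, so this property and the Cenpj genotype are told apart only through 1 control library in each organ.

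Promoter sequences are shown for Actc1, Myh6 and Ryr2, the members whose level differed between genotypes in the lung, and for Myl7, the member with the highest level per length. Each runs 5′ to 3′ from 250 bases before to 50 bases after the RefSeq start on GRCm38.p6, and capitals mark a CArG box, the site that serum response factor binds in muscle genes.
Actc1, chr2:114052826-114053125, minus strand: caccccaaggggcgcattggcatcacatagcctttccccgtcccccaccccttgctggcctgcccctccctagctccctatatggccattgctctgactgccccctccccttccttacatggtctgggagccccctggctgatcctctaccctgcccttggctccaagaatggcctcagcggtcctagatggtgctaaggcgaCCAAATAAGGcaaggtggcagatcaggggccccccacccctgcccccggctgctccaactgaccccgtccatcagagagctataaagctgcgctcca
Myl7, chr11:5898733-5899032, minus strand: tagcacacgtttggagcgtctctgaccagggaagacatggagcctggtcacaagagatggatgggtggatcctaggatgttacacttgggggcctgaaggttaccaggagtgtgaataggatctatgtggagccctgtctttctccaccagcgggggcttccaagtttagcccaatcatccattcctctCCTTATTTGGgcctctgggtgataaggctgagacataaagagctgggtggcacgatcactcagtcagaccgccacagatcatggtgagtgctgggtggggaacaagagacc
Myh6, chr14:54966558-54966857, minus strand: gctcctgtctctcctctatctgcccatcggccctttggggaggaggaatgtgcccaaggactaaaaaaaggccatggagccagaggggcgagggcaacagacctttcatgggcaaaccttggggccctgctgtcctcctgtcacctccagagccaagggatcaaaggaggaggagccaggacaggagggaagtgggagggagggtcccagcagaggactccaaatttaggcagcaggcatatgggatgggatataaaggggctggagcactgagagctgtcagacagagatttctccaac
Ryr2, chr13:12106896-12107195, minus strand: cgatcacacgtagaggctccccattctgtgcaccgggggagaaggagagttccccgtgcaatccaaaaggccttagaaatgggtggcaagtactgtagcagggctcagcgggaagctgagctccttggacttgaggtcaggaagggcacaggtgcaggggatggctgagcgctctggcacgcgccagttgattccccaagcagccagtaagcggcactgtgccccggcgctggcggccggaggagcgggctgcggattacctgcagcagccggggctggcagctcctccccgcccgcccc
All 9 members were found in the RefSeq table, with 11 promoters between them. A CArG box was found in the promoters of Actc1 and Myl7, beginning 47 bases before the start in Actc1 and 61 before it in Myl7, and in 1.63% of the 32851 mouse promoters of the same length. The Actc1 match reads CCAAATAAGG and the Myl7 match CCTTATTTGG, each the reverse complement of the other. GATAA, the core of a GATA factor site, was found on either strand in 4 of the 11 promoters (Myl7, Nppa, Smpx and 1 of the Tnnt2 promoters) and in 25.4% of all promoters. TNAAGTG, a form of the NKX2-5 site, was found in Nppa and in 1 of the Myh7 promoters, and in 3790 of the 32851. A MEF2 site was found in none of the 11 and in 3.19% of all promoters, and no match says only that these letters are not in this window. Myh6 and Myh7 lie next to each other on chromosome 14 of GRCm38, Myh6 at 54941981 to 54966927 and Myh7 at 54970688 to 54994634, and encode closely related proteins, and whether reads of one were counted for the other was not measured.

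Of the members, 7 were higher in control lung than in control intestine, none was lower, and Myh7 and Nppa did not pass the threshold. Among all genes tested, 2.6% were higher in control lung and 2.73% were lower (limma on log2 of normalized count + 1, Benjamini-Hochberg adjusted p under 0.05). The median log2 difference of the 9 was 3.05, and that of all genes tested was 0.00. In whole organs, fewer cells of a type and less RNA per cell cannot be told apart. The plot of the members by library shows no overlap of the organs in either mutant for Tnnt2, Myl4, Myl7, Ryr2 and Smpx.

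**Figure D1:**
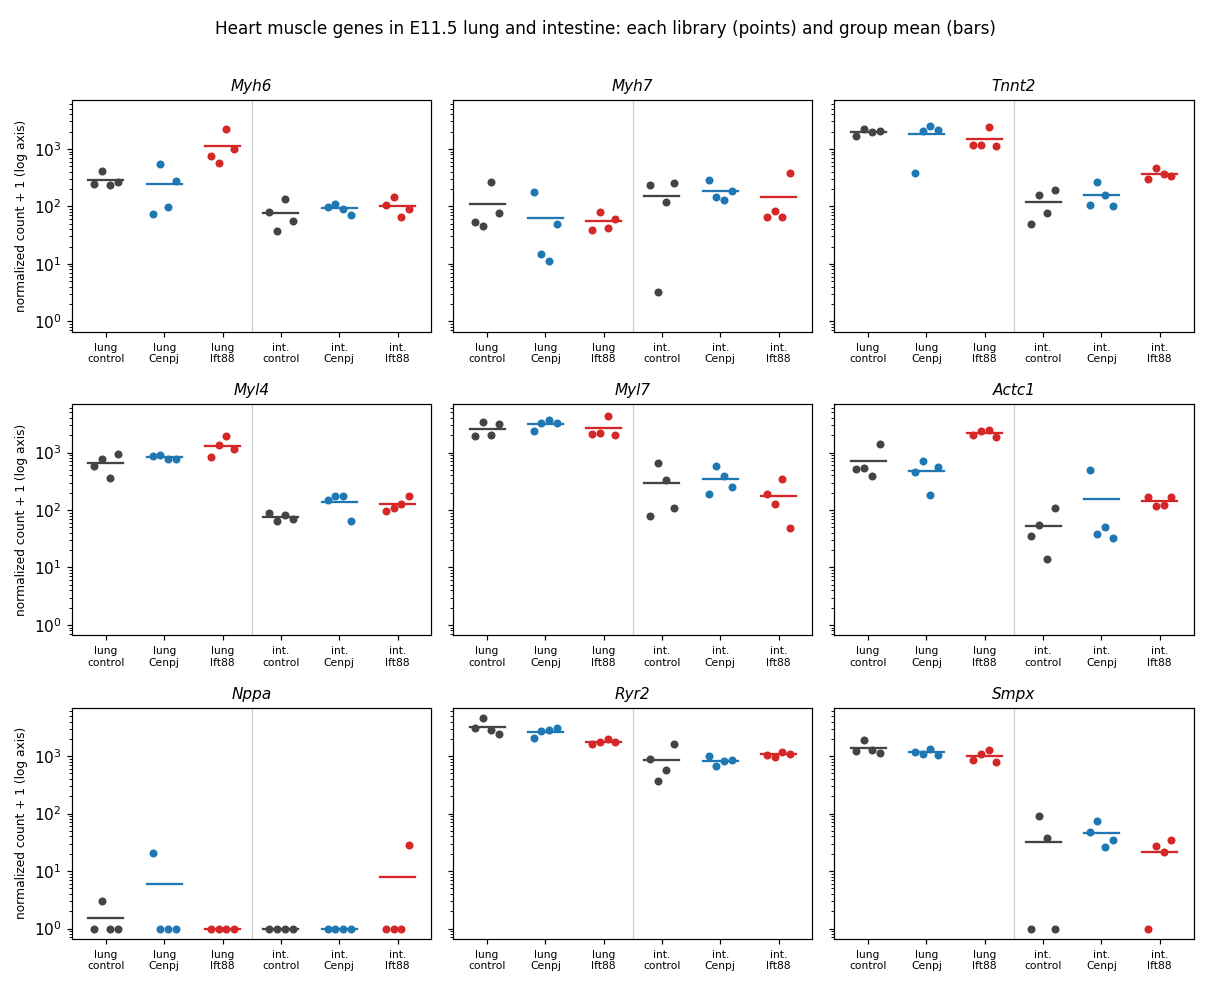
Normalized count + 1 of each of the 9 genes on a log axis, with 1 point per library, a bar at the group mean, and 4 libraries in each of the 6 groups (int. = intestine). Lung libraries lie above intestine libraries for Tnnt2, Myl4, Myl7, Ryr2 and Smpx in every genotype, Myh7 overlaps between organs, and Nppa is at 0 in 21 of the 24 libraries.

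Myl7, the atrial regulatory light chain of myosin, had the highest level per length. In the control lungs it stood at 1919, 3403, 1987 and 3115 normalized counts, and in the control intestines at 78.9, 665, 336 and 108. The organs did not overlap, and relative to their mean the intestines differed among themselves more than the lungs did. The log2 difference was 3.59 (SE 0.517, limma adjusted p = 2.08e-05). It was 3.26 (SE 0.517, limma adjusted p = 8.38e-05) in Cenpj mutants and 4.16 (SE 0.517, limma adjusted p = 1.39e-06) in Ift88 mutants. Myl4, the essential light chain found in atria and embryonic muscle, stood at 576, 773, 365 and 957 normalized counts in the control lungs and at 87.3, 63.8, 82.2 and 68.4 in the control intestines. Here the intestines were close together and all were below every lung, with a log2 difference of 3.05 (SE 0.338, limma adjusted p = 3.4e-07). In Cenpj mutants it was 2.66 (adjusted p = 3.53e-06) and in Ift88 mutants 3.36 (adjusted p = 3.95e-08), by limma.

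Smpx, a small protein of striated muscle encoded on the X chromosome, showed the largest log2 difference of the members. Its control lungs stood at 1223, 1869, 1281 and 1141 normalized counts, and the control intestines at 0, 89.6, 35.9 and 0. All 12 lung libraries were above all 12 intestine libraries. The log2 difference was 7.47 (SE 1.06, limma adjusted p = 1.59e-05) in controls, and because 2 of the intestines were at 0 its size depended on the pseudocount, from 5.46 to 9.15 over the alternatives tried. It was 4.78 in Cenpj mutants (limma adjusted p = 0.00379) and 6.36 in Ift88 mutants (limma adjusted p = 0.000102). With a pseudocount of 0.1 the adjusted p in Cenpj mutants was 0.0934.

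Tnnt2, the cardiac form of the troponin subunit that anchors the complex to the thin filament, stood at 1669, 2183, 1971 and 2060 normalized counts in the control lungs. In the control intestines it stood at 48.4, 155, 74.7 and 189. The lungs were close together, and the log2 difference was 4.26 (SE 0.457, limma adjusted p = 2.1e-07). In Cenpj mutants 3 lungs stood at 2056 to 2530 and the other at 377, still above the highest Cenpj mutant intestine at 268, with a log2 difference of 3.29 (limma adjusted p = 1.33e-05). In Ift88 mutants the lungs stood at 1171, 1160, 2405 and 1117 and the intestines at 298, 472, 359 and 338. The gap was narrower there, at 1.93 (SE 0.457, limma adjusted p = 0.00521).

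Actc1, the actin of the heart muscle thin filament, stood at 516, 538, 383 and 1381 normalized counts in the control lungs and at 34.7, 53.8, 13.2 and 108 in the control intestines. No intestine reached the lowest lung, and the log2 difference was 3.90 (SE 0.641, limma adjusted p = 0.000137). It was 3.91 in Ift88 mutants (SE 0.641, limma adjusted p = 8.43e-05). In Cenpj mutants the lungs stood at 464, 712, 179 and 552 and the intestines at 495, 37.8, 49.9 and 31.3, so the organs overlapped through 1 intestine. The log2 difference there was 2.51 (SE 0.641, limma adjusted p = 0.0135), and the call was lost in edgeR (1.64, adjusted p = 0.171) and DESeq2 (1.63, adjusted p = 0.154) on reads recovered from the table. It was also lost without lung Cenpj mutant 2 (limma adjusted p = 0.056), intestine Cenpj mutant 2 (0.0593) or intestine Cenpj mutant 4 (0.0707).

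Ryr2, the calcium release channel, stood at 3095, 4569, 2797 and 2391 normalized counts in the control lungs and at 891, 363, 578 and 1601 in the control intestines, without overlap. Its log2 difference was 2.07 (SE 0.271, limma adjusted p = 4.7e-06) in controls and 1.67 (SE 0.271, limma adjusted p = 0.000113) in Cenpj mutants. In Ift88 mutants, with lungs at 1614 to 1970 and intestines at 973 to 1179, it was 0.73 (SE 0.271) and did not pass (limma adjusted p = 0.103), although the groups did not overlap. With only those 2 groups in the fit the adjusted p was 0.000898. Myh6, the fast heavy chain of atrial myosin, stood at 248, 404, 236 and 261 normalized counts in the control lungs and at 78.9, 35.8, 136 and 55.3 in the control intestines. The difference was 2.03 (SE 0.527, limma adjusted p = 0.0171). Its call in controls was lost without lung control 2 (limma adjusted p = 0.0663), intestine control 2 (0.0699) or the 2 controls rich in ribosomal reads (0.0875). In Cenpj mutants the organs overlapped and the difference of 1.00 did not pass (limma adjusted p = 0.343), while in Ift88 mutants it was 3.33 (SE 0.527, limma adjusted p = 5.22e-05).

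Myh7, the slow heavy chain of ventricular myosin, went a different way from Myh6. It stood at 51.9, 45, 264 and 76.8 normalized counts in the control lungs and at 235, 2.2, 118 and 259 in the control intestines. The organs overlapped, and the log2 difference of 0.28 (SE 1.04) did not pass (limma adjusted p = 0.993). The differences in Cenpj mutants (-2.34, limma adjusted p = 0.224) and Ift88 mutants (limma adjusted p = 0.711) did not pass either. Nppa was at 0 in 21 of the 24 libraries and stood at 2, 19.6 and 27 normalized counts in lung control 2, lung Cenpj mutant 1 and intestine Ift88 mutant 4. Genes at the edge of detection most often held 12 to 42 reads in a library, so these values are near the lowest that the libraries give. That number was 35 reads in intestine control 1 and 42 in intestine control 2. Actc1 held 33 and 48 reads in these libraries, Tnnt2 46 and 138, Myl4 83 and 57, and Myh6 75 and 32. Some control intestine values behind the organ differences were thus near that edge as well.

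**Figure D2:**
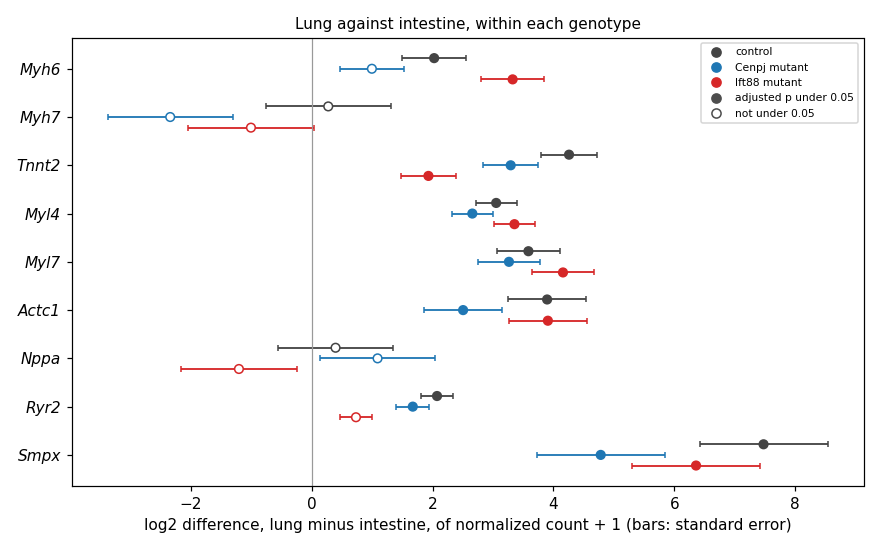
Log2 difference between lung and intestine of normalized count + 1 for the 9 genes in controls, Cenpj mutants and Ift88 mutants, with bars for the standard error and filled points for an adjusted p under 0.05 by limma. In controls 7 points are filled, from 2.03 for Myh6 to 7.47 for Smpx, and Myh7 and Nppa are open in every genotype.

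Counted by genotype, 6 members were higher in Cenpj mutant lung than in Cenpj mutant intestine, against 2.53% of all genes higher and 3.98% lower, and Myh6 was the member called in controls and not here. In Ift88 mutants 6 members were higher in lung, against 3.1% of all genes higher and 5.37% lower, and Ryr2 was the member not called. No member was lower in lung in any genotype. Myh7 and Nppa passed in none of the 3.

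Per length, as reads per kb of exon per M reads, Myl7 stood at 41.1 ± 12.7 (SD, n = 4) in the control lungs. Smpx followed at 5.62 ± 1.4 and Actc1 at 4.06 ± 2.68, and the libraries of these 2 overlapped. Tnnt2 came next at 2.36 ± 0.284, within the range of Actc1 (2.14 to 8.03) in part and above every library of Myl4. Myl4 at 1.34 ± 0.531 and Ryr2 at 1.04 ± 0.315 overlapped each other. Myh6 at 0.397 ± 0.113 was below every Ryr2 library, and Myh7 at 0.116 ± 0.108 was below every Myh6 library. In Ift88 mutant lung the order after Myl7 (42.9 ± 17) was led by Actc1 at 12.7 ± 1.58, and all 4 of its libraries there were above the highest Smpx library (5.13). In the control intestines Myl7 stood at 4.67 ± 4.18, and the means of the other members were at or under 0.305. Exon lengths came from all annotated exons of a gene, 590 bases for Myl7 and 28790 for Ryr2, so a gene with exons that were not transcribed here would be set too low.

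**Figure D3:**
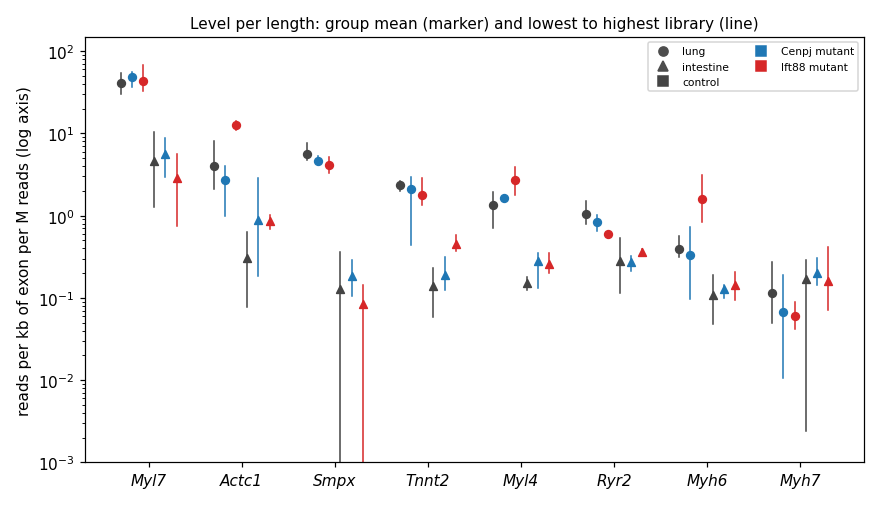
Reads per kb of exon per M reads on a log axis for 8 of the genes (Nppa left out, being at or near 0), with markers at the group mean, circles for lung, triangles for intestine, and lines from the lowest to the highest of the 4 libraries, ending at the axis where a library is at 0. Myl7 is highest in every group, and Actc1 in Ift88 mutant lung, at 10.9 to 14.1, is above the other members except Myl7.

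Other heart muscle genes were read from lists without the 9 members. Of 28 other sarcomere genes tested in controls, 5 were higher in lung, none was lower, and the list's median log2 difference was 0.94. Mybpc3, the heart's myosin-binding protein C, had a difference of 6.76 (SE 0.995, limma adjusted p = 2.89e-05). It stood at 65.6 to 197 normalized counts in the control lungs and at 0.9 or less in the control intestines. Csrp3, a Z-disc protein of heart muscle, had 6.34 (limma adjusted p = 0.000295), Nebl, the heart's small nebulin relative, had 3.09 (adjusted p = 1.17e-06) and Synpo2l, a Z-disc protein, had 4.61 (adjusted p = 0.00115). Csrp3 was at 0 in every control intestine, so the sizes of the Mybpc3 and Csrp3 differences depend on the pseudocount. The sarcomere genes Lmod2, Mybphl, Myl2, Myoz2, Tcap and Xirp2 had a mean under 50 normalized counts in every group, and Myl2, the ventricular light chain, was at 0 in every control library.

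Of 21 other excitation and calcium genes tested, 5 were higher in control lung and 3 were lower, with a median of 0.25. Slc8a1, the sodium-calcium exchanger of heart muscle, had a log2 difference of 0.88 (limma adjusted p = 0.000298). Kcna5, an atrial potassium channel, went the other way at -1.51 (limma adjusted p = 0.000183). The 22 heart transcription factors split, with 9 higher and 5 lower in control lung and a median of 0.33. Tbx2 (2.30, limma adjusted p = 7.49e-08), Gata5 (2.63, adjusted p = 3.59e-07) and Tbx18 (5.29, adjusted p = 1.94e-06) were higher. Hand1, which marks heart precursors and also gut mesenchyme, was lower in lung at -8.76 (limma adjusted p = 1.22e-07). Nkx2-5, a heart factor, stood at 0 to 162 normalized counts in the control lungs and at 1545 to 3510 in the control intestines. It was thus higher in intestine, like Hand1, while the 7 called members were higher in lung. The cells that the Nkx2-5 reads came from were not tested.

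The chamber lists gave few calls. Among 10 other atrial genes tested, 1 was higher in control lung (Tbx5, also a factor of lung mesenchyme, 7.78, limma adjusted p = 8.08e-05) and 2 were lower (Kcna5, named above, and Stard10, -0.61, adjusted p = 0.041). Among 8 ventricular genes, Irx4, a ventricular factor, was higher at 6.22 (limma adjusted p = 0.0136) and Hey2 was lower at -1.07 (adjusted p = 0.0352). Irx4 was at 0 in every control intestine and at 12.7 to 466 normalized counts in the control lungs. The size of its difference thus depends on the pseudocount. Of 13 metabolic and hormone genes, Corin, the enzyme that activates the Nppa hormone, was higher at 2.56 (limma adjusted p = 0.00105) and none was lower. Nppb, the ventricular counterpart of Nppa, was at 0 in every control library. The median differences of these lists were -0.11, 0.13 and 0.00.

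Genes of other muscle were compared between the organs. Of 18 skeletal muscle genes tested, Pax7, of muscle precursors, and Myh8, a fetal myosin, were higher in control lung (6.14, limma adjusted p = 0.00155, and 4.42, adjusted p = 0.0158), and the summed level of the 19 was 2536 to 4725 in the control lungs and 1295 to 2335 in the control intestines. Pax7 was at 0 in the control and Ift88 mutant intestines, so the size of its difference depends on the pseudocount. The summed level by itself does not show skeletal muscle in the intestine. Of 13 smooth muscle genes, Cald1, an actin-binding protein, was higher in lung at 0.70 (limma adjusted p = 0.00111) and Synpo2 was lower at -2.39 (adjusted p = 8.56e-06). Their summed level was 96881 to 141588 in the control lungs and 57528 to 223712 in the control intestines. The part of these other muscle cells in the organ difference was not tested.

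In the lung, the Ift88 mutants differed from controls in Actc1, which was higher, and Ryr2, which was lower, so 2 of the 9 members were called against 1.07% of all genes. Actc1 stood at 1977, 2328, 2417 and 1855 normalized counts in the Ift88 mutants and at 516, 538, 383 and 1381 in controls. The mutants were close together and all above the highest control, with a log2 difference of 1.78 (SE 0.367, limma adjusted p = 0.0217). Ryr2 stood at 1614, 1792, 1970 and 1760 in the mutants against 3095, 4569, 2797 and 2391 in controls, again with no overlap, and differed by -0.81 (SE 0.171, limma adjusted p = 0.0254). The 2 calls thus ran in opposite directions, and the median over the 9 members was -0.40 against 0 over all genes. That median is the difference of Nppa, which in these groups was above 0 only in lung control 2, at 2 normalized counts. It therefore does not show a general fall of the members.

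Myh6 stood at 744, 573, 2237 and 987 normalized counts in the Ift88 mutant lungs and at 248, 404, 236 and 261 in controls. All mutants were above all controls, but the log2 difference of 1.81 (SE 0.507) did not pass (limma adjusted p = 0.0939). Myl4 stood at 849, 1334, 1951 and 1138 against 576, 773, 365 and 957, with overlap, and its difference of 1.00 (SE 0.267) did not pass either (limma adjusted p = 0.0768). Other tests on recovered reads moved Myh6 past the threshold, to an adjusted p of 0.0471 in edgeR and 0.00558 in DESeq2, and DESeq2 did so for Myl4 (adjusted p = 0.0203). The authors' deposited table gives linear fold changes of 3.95 for Myh6 (FDR 0.00541), 1.97 for Myl4 (FDR 0.0358) and 0.555 for Ryr2 (FDR 0.0495), and a fold change of 3.04 for Actc1 with no FDR. Smpx (-0.46, limma adjusted p = 0.297), Tnnt2 (-0.50, adjusted p = 0.697) and Myh7 (-0.66, adjusted p = 0.795) did not pass.

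The calls of Actc1 and Ryr2 were near the threshold. With the ribosomal content of the library as a term, the log2 difference was 1.55 for Actc1 (adjusted p = 0.292) and -0.86 for Ryr2 (0.19). That term rests here on lung control 3 alone. Leaving out lung control 3 gave the same differences, so these settings are not separate checks. Without the filter on low values the adjusted p was 0.0634 and 0.0579. Actc1 lost its call without lung control 1, 2 or 3 or lung Ift88 mutant 1, 2 or 3 (limma adjusted p 0.0532 to 0.089), and Ryr2 without lung control 1, 2 or 3 or lung Ift88 mutant 1, 2 or 4 (0.0525 to 0.0997). Lung Ift88 mutant 3 held the highest value of its group in 7 of the 8 members other than Nppa, all but Myh7.

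**Figure D4:**
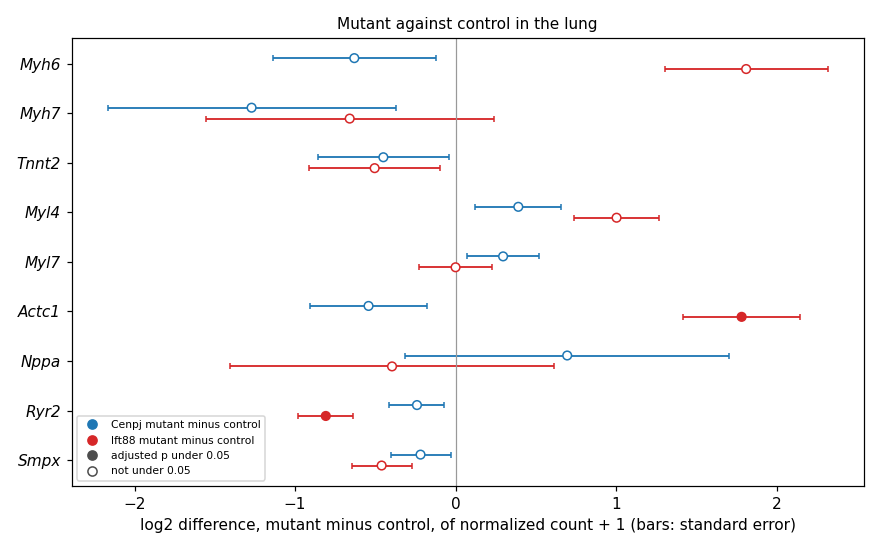
Log2 difference of each mutant from the shared controls in the lung, for normalized count + 1, with bars for the standard error and filled points for an adjusted p under 0.05 by limma. Actc1 (1.78) and Ryr2 (-0.81) in Ift88 mutants are the filled points, and every Cenpj mutant point is open.

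Smooth muscle actins were higher in the same Ift88 mutant lungs. Acta2, the actin of vascular and airway smooth muscle, stood at 38440, 39868, 31619 and 38578 normalized counts against 15746, 6061, 3054 and 13301 in controls, a log2 difference of 2.23 (SE 0.353, limma adjusted p = 0.00448). Actg2, the actin of visceral smooth muscle, differed by 2.07 (SE 0.402, limma adjusted p = 0.0158), and the other 11 of the 13 smooth muscle genes were not called. The summed level of the list was 140529 to 205193 in the mutants and 96881 to 141588 in controls, and all 13 genes were above 0. Actc1, Acta1, Acta2 and Actg2 encode near-identical proteins, and whether reads were shared between these genes was not measured. Acta1, the skeletal actin, stood at 105 to 143 in the Ift88 mutants and 108 to 442 in controls, and the part of smooth muscle or of shared reads in the Actc1 difference was not tested.

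**Figure D5:**
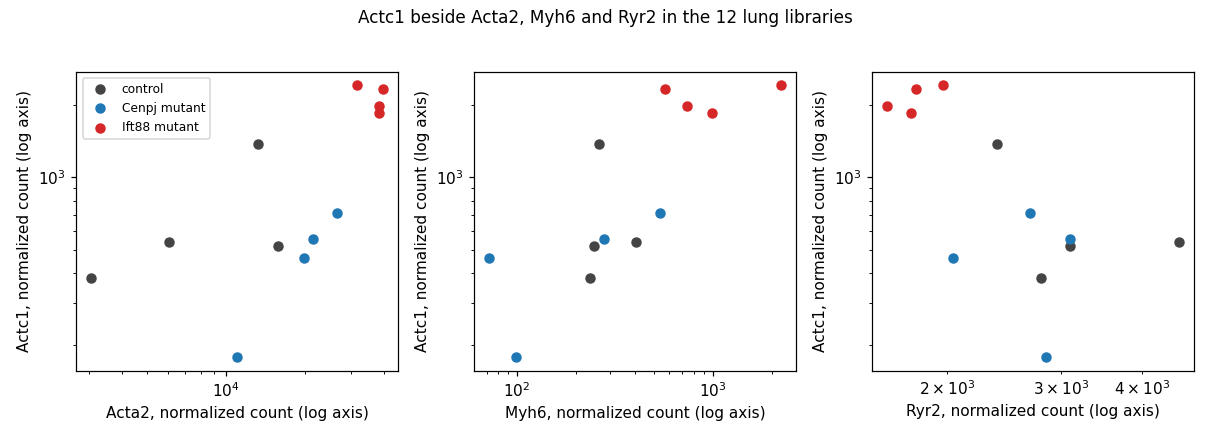
Normalized counts of Actc1 against those of Acta2, Myh6 and Ryr2 on log axes in the 12 lung libraries, 1 point per library, coloured by genotype. The 4 Ift88 mutants, with Actc1 at 1855 to 2417, lie apart from the other 8 libraries, at 31619 or more in Acta2, 573 or more in Myh6 and 1970 or less in Ryr2.

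Among the other heart muscle lists in Ift88 mutant lung, 1 of 28 sarcomere genes was called, Synpo2l (-0.99, SE 0.227, limma adjusted p = 0.0396), lower like Ryr2, and the list's median was 0.09. Of 22 excitation genes, Bves, a membrane protein of muscle cells, was called at -1.23 (limma adjusted p = 0.0427). The transcription factor Tbx18 was lower (-1.21, limma adjusted p = 0.0318), among the 2 of 22 called in that list, both lower, with a median of -0.35. Dkk3, in the atrial list, was higher at 0.94 (limma adjusted p = 0.0324). None of the 8 ventricular, 12 metabolic and 17 skeletal muscle genes tested was called. Of 10 genes of red blood cells 6 were lower, with a summed level of 238428 to 385083 in the mutants against 487015 to 1596570 in controls, and of 7 lung markers 2 were higher, Sftpc (2.96, limma adjusted p = 0.00743) and Wnt2, a signal of lung mesenchyme (0.82, adjusted p = 0.0369). The summed level of the lung markers was 99318 to 122957 in the mutants and 86757 to 109441 in controls, and the part of blood or lung cells in the member differences was not tested.

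In Cenpj mutant lung none of the 9 members was called, against 0.513% of all genes. On recovered reads edgeR called 177 genes and DESeq2 called 754, none of them a member, and 3606 genes had a p under 0.05 before adjustment. Log2 differences of the members ran from -1.27 for Myh7 (limma adjusted p = 0.637) to 0.69 for Nppa, which was above 0 in 1 library of each group. Myh6 stood at 71.8, 536, 98.5 and 279 normalized counts in the Cenpj mutants, a wider spread than in the controls on both sides of their range (-0.63, SE 0.507, limma adjusted p = 0.699). Tnnt2 differed by -0.45 (SE 0.41, limma adjusted p = 0.704), and without lung Cenpj mutant 1, at 377 normalized counts, by 0.19. Myl4 was at 854, 910, 778 and 761 (0.39, SE 0.267, limma adjusted p = 0.618). None of the genes in the other heart muscle lists was called.

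Set against each other in the lung, the mutants differed in 2 members, both lower in Cenpj mutants, against 1.8% of all genes. Actc1 stood at 464, 712, 179 and 552 normalized counts in the Cenpj mutants, all far below the Ift88 mutants at 1855 or more, with a log2 difference of -2.32 (SE 0.367, limma adjusted p = 0.00201). Myh6 differed by -2.44 (SE 0.507, limma adjusted p = 0.0156), also without overlap, and its call was lost without lung Cenpj mutant 3 (adjusted p = 0.0557) or lung Ift88 mutant 3 (0.0558). Ryr2 was at 2046, 2684, 2849 and 3099 in the Cenpj mutants, above every Ift88 mutant, but its difference of 0.57 (SE 0.171) did not pass (limma adjusted p = 0.112). Myl4 differed by -0.61 (SE 0.267, limma adjusted p = 0.346). All Cenpj mutant lungs were rich in ribosomal reads and no Ift88 mutant lung was, and with that property as a term, which here rests on lung control 3 alone, the differences were -1.40 for Actc1 (adjusted p = 0.763) and -2.11 for Myh6 (0.758), and neither passed. Of the heart muscle lists, Cacna1c, the cardiac and smooth muscle calcium channel, was lower (-1.33, limma adjusted p = 0.00165), and Synpo2l (1.09, adjusted p = 0.016) and Tbx18 (1.28, adjusted p = 0.015) were higher in Cenpj mutants. Of 10 genes of red blood cells 4 were higher in Cenpj mutants, among them the embryonic globin Hbb-bh1 (2.73, limma adjusted p = 2.96e-06), with a summed level of 532318 to 1775580 against 238428 to 385083 in Ift88 mutants. Of 7 lung markers 2 were lower, Nkx2-1 (-1.50, limma adjusted p = 0.00155) and Sftpc (-2.31, adjusted p = 0.0215), with a summed level of 72087 to 102598 against 99318 to 122957. No smooth muscle gene of 13 was called, with a summed level of 106915 to 156929 against 140529 to 205193, and the part of these cells in the Actc1 and Myh6 differences was not tested.

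In the intestine no member was called between any 2 genotypes. For Ift88 mutants against controls 0.719% of all genes were called by limma, while edgeR called 196 and DESeq2 1015 genes, and 4234 genes had a p under 0.05 before adjustment. Tnnt2 came nearest, at 298, 472, 359 and 338 normalized counts against 48.4, 155, 74.7 and 189 in controls. Every Ift88 mutant was above every control, and the log2 difference was 1.82 (SE 0.481, limma adjusted p = 0.0821). In DESeq2 it passed (adjusted p = 0.0168), as it did by limma without intestine control 4 (0.0255), and the authors' deposited table gives a fold change of 3.14 with an FDR of 0.00672. Actc1 stood at 170, 116, 119 and 169 in the mutants against 34.7, 53.8, 13.2 and 108, above every control as in the lung, but the difference of 1.77 (SE 0.842) did not pass (limma adjusted p = 0.373).

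Of 13 smooth muscle genes, 4 were higher in Ift88 mutant intestine and 9 were not called. The 4 were Tpm2 (1.27, limma adjusted p = 0.0229), Myl9 (2.23, adjusted p = 0.0299), Cnn1 (3.42, adjusted p = 0.0458) and Acta2 (3.83, adjusted p = 0.0482). The summed level of the 13 was 211804 to 346317 in the mutants and 57528 to 223712 in controls, which overlap. Tpm1, a tropomyosin of heart and smooth muscle in the sarcomere list, was higher as well (0.82, limma adjusted p = 0.0384), while Gja1, a gap junction protein, was lower (-0.48, adjusted p = 0.0382), as was Hand1 (-0.79, adjusted p = 0.027). Of 10 genes of red blood cells 3 were lower, with a summed level of 164369 to 232855 against 208645 to 623372 in controls. The part of smooth muscle and of blood in the Tnnt2 and Actc1 values was not tested.

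For Cenpj mutant intestine against controls 0% of all genes were called by limma and none by edgeR, against 54 by DESeq2, and 1616 genes had an unadjusted p under 0.05. Tnnt2 was at 106, 268, 158 and 99.8 normalized counts (0.51, SE 0.481, limma adjusted p = 0.906), overlapping the controls. Myl4 was at 147, 177, 171 and 63.6 against 63.8 to 87.3 (0.78, SE 0.514, limma adjusted p = 0.906). Between the mutants 2.19% of all genes were called, while edgeR called 649 and DESeq2 1855 genes, none of them a member, and 4937 genes had a p under 0.05 before adjustment. Tnnt2 was lower in every Cenpj mutant than in every Ift88 mutant, at -1.31 (SE 0.481, limma adjusted p = 0.168), and the authors' deposited table gives a fold change of 2.32 for Ift88 over Cenpj mutants with an FDR of 0.0456. Beside it, 8 of 13 smooth muscle genes were lower in Cenpj mutants, with a median of -2.09 and Acta2 at -4.37 (limma adjusted p = 0.0183), and their summed level was 64391 to 136450 against 211804 to 346317. Of 10 genes of red blood cells 5 were higher, with Hbb-bh1 at 2.41 (limma adjusted p = 0.00774) and a summed level of 205842 to 835493 against 164369 to 232855. Of 26 sarcomere genes tested 2 were lower, Tpm1 (-0.83, limma adjusted p = 0.0231) and Myom1, which ties myosin filaments together (-1.28, adjusted p = 0.0497). The part of smooth muscle and of blood in the Tnnt2 difference was not tested.

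The effect of each genotype was also compared between lung and intestine. For Ift88 no member passed, against 0.0125% of all genes called, 2334 with an unadjusted p under 0.05, and 3 called by edgeR and 194 by DESeq2. Tnnt2 had the largest difference between effects, -2.33 (SE 0.646, limma adjusted p = 0.233), with mutants above controls in the intestine and 3 of 4 mutants below them in the lung. Ryr2 had -1.34 (SE 0.383, limma adjusted p = 0.237), with mutants below controls in the lung and a difference of 0.53 (SE 0.311, adjusted p = 0.489) in the intestine. Without intestine control 4, whose Ryr2 of 1601 was the highest of its group, Ryr2 passed (-1.71, adjusted p = 0.0132). Intestine control 4 also had the highest Acta2 of its group, at 55733 normalized counts against 811 to 8591 in the other control intestines. The part of smooth muscle in this result was not tested. Myh6 had 1.30 (SE 0.745, limma adjusted p = 0.752). For Cenpj 0% of all genes were called, with 1528 at an unadjusted p under 0.05, none called by edgeR and 44 by DESeq2, and Myh7 had -2.61 (SE 1.46, limma adjusted p = 0.932).

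Over all 24 libraries the members other than Myh7 and Nppa varied together, with Pearson r between their log2 levels of 0.55 (Myh6 with Ryr2) to 0.90 (Myl7 with Smpx), and the points share the organ difference. Myh7 had an r of -0.08 to -0.52 with each of them. The 12 lung libraries share the organ and span the 3 genotypes. Among them Myh6 and Actc1 had an r of 0.81, Myl4 and Actc1 0.70, and Ryr2 and Smpx 0.77. Actc1 and Ryr2 had an r of -0.69 there, in place of 0.70 over both organs. Across the 12 intestine libraries Myh6 and Actc1 had an r of -0.01, and Myl4 and Actc1 0.36. Ryr2 and Smpx had -0.58 in the intestine, and Actc1 and Ryr2 0.54.

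The genes whose log2 level over the 24 libraries was most like the mean of the 9 members, among 14607 with a mean of 50 or more, were Add3 (r = 0.969), Sftpa1 (0.959), Ces1f (0.951), Ralb (0.95) and Sftpc (0.95). Sftpa1 and Sftpc encode surfactant proteins of the lung's epithelium. Akap5, Kank4, Otud1, Prss35, A2m, Svep1, Epha3, Zeb2, Nkx2-1 and Mal2 completed the 15, down to an r of 0.936. None of the 15 is in the other heart muscle lists. Their r within the 12 lung libraries was 0.598 at most (Svep1), and -0.374 for A2m, so the likeness over 24 libraries goes with the organ each library came from. Ranked within the 12 lung libraries instead, the 15 genes most like the mean had an r of 0.791 to 0.890. Tnnc1, a troponin subunit in the sarcomere list, was among them at 0.814.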

How the data were processed

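Bulk RNA was sequenced from whole organs in 24 libraries, grouped by the organ and genotype of the labels. The deposited table gives the signal of each gene as a normalized count, a read count divided by that library's size factor, as the file headers and low values show. Its ratio columns are the authors' linear fold changes, and its p-value columns hold the authors' p and FDR. The deposited formula column, a fold change with another spreadsheet result in place of some values, was not printed. STAR 2.5.2b, DESeq2 1.16.1, GRCm38 and mm10 come from the submitters' processing notes. How reads were counted, on which annotation and strand, is not given in the sources used here. Of the 9 members, 6 overlap a gene on the opposite strand in GENCODE M21 (Actc1, Myl4, Myh6, Myh7, Nppa and Ryr2), so reads of the partners cannot be told apart.

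The plan allowed for counts or normalized values, and as the table holds the latter, limma 3.58.1 (trend, R 4.3.3) took log2(value + 1) of the genes averaging 1 or more, over the 12 libraries of an organ or all 24 between organs, with Benjamini-Hochberg adjustment over all genes tested. All 9 members passed this filter, Nppa through 3 libraries. A fold change on this scale understates the change of low genes. Up to 500, 100% of values were a whole number of steps, with a tolerance of 0.051. In 4 libraries the step lay too near 1 to be told from rounding. The recovered reads were used for depth, edgeR 4.0.16 and DESeq2 1.42.0. Genes called by edgeR are given beside limma's counts of 0. With 335 genes called by limma for Ift88 mutant against control lung, edgeR called 395. The fits were checked on simulated data. Control lungs and control intestines of the same number deviated together (r of 0.101 to 0.244 over genes averaging 100 or more, above 0.1 in each of 4 pairs). The labels state no pairing. The reported fits were unpaired, and a fit with the replicate number as a block was run beside them. Control and Cenpj mutant intestines of the same number, which differ in genotype, also had an r of 0.0804 to 0.257. The r therefore does not show that 2 organs came from the same embryo.

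The members and the 13 gene lists were chosen with earlier results of these data known. Named are the 9 members, Cenpj and Ift88, per list up to 4 called genes of lowest p or else the 2 of highest mean, and the 15 genes most like the members' mean. Nkx2-5, Mybphl, Lmod2, Myl2, Myoz2, Tcap, Xirp2, Nppb, Acta1 and Tnnc1 were named after their values were seen, as was Nkx2-1 with Cdx2 as a check of the organs. The split by ribosomal reads was also made after seeing the data. A few genes named by this rule are not reported here.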

Additional observations from a re-analysis of the deposited data

Results flagged for a closer look

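In 51 groups of 4 libraries with values that differ, 10 held a library far from the other 3, by a gap that passed Dixon's 95% critical value. Chance flags about 1 in 20 such groups when values are normally distributed, but these counts were tested without logs. The flagged Nppa groups had 1 library above 0 and the others at 0, so a flag was certain. The 10 flags thus cannot be set against that rate. Tnnt2 at 2404.6 and Myl7 at 4320 normalized counts were both high in lung Ift88 mutant 3, where the other libraries stood at 1117 to 1171 and at 2014 to 2198. Myh6 at 404.1 was high in lung control 2. Actc1 at 1380.8 was high in lung control 4, and at 494.7 in intestine Cenpj mutant 1, where the others stood at 31.3 to 49.9. Myh7 at 263.6 was high in lung control 3 and at 379.7 in intestine Ift88 mutant 4. Nppa was above 0 in 1 library of 3 groups, at 2 in lung control 2, 19.6 in lung Cenpj mutant 1 and 27 in intestine Ift88 mutant 4. The last of these libraries was thus high in both Myh7 and Nppa.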

How the results depend on the processing

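Of 420 member differences recomputed under other settings, 392 kept their direction and their side of the threshold, and of 424 recomputed without 1 library, 398 did. For Ift88 mutant against control lung, 2 members were called, and the count was 4 in DESeq2, 0 without the filter, 0 with library kind as a term, 0 without the ribosomal-rich controls (added after seeing the data) and 0 to 3 leaving out 1 library. Library kind as a term and leaving out the ribosomal-rich controls both rest on lung control 3 in this comparison. The count of 2 for Cenpj against Ift88 mutant lung was 0 with library kind as a term and 1 to 3 leaving out 1 library. With library kind as a term the count was 1 in place of 0 for both intestinal comparisons of Cenpj mutants, in each case Myh7. For Ift88 mutant against control intestine it was 1 in place of 0 in DESeq2, and 0 to 1 leaving out 1 library, and for the difference of the Ift88 effect between organs 0 to 1. The cause was not tested. The fit with the replicate number as a replicate block called 2, 2, 7, 6 and 6 members where the unpaired fit did, and 0 elsewhere, and changed no call.

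Reversed signs were found only for members that were not called. Myh7 in control lung against control intestine was -0.50 in edgeR with TMM factors, -0.49 in edgeR with DESeq2-type factors and in DESeq2, -1.76 without the ribosomal-rich controls, -0.28 without lung control 3 and -1.20 without intestine control 2 (range -1.20 to 0.91 leaving out 1 library). Tnnt2 in Cenpj mutant against control lung was 0.19 without lung Cenpj mutant 1 (range -0.72 to 0.19), and in the intestine -0.086 with library kind as a term. Myl4 in Cenpj against Ift88 mutant lung was 0.43 with library kind as a term. Nppa and, in the intestine, Smpx were at 0 in some libraries, which limits their differences.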
